A study of Rattus norvegicus with 25 samples.

Results

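The expression of 10 genes for matrix metalloproteinases and their tissue inhibitors was followed across 25 rats: the gelatinases Mmp2 and Mmp9, the stromelysins Mmp3 and Mmp10, the macrophage elastase Mmp12, the collagenase Mmp13, the membrane-bound Mmp14, and the inhibitors Timp1, Timp2 and Timp3. Members were taken by gene name, through the RefSeq accession of each array probe, and not by their values. The 10 genes had 11 probes, among 15437 named genes on the array. Each animal was a male F344 rat, and the tissue was labelled esophageal epithelium. The Control group of 5 rats received no carcinogen. The NMBA group of 5 rats was given N-nitrosomethylbenzylamine (NMBA), which is used as an esophageal carcinogen in this species. A further 15 received NMBA with vitamin E, in groups of 5 on alpha-tocopherol, delta-tocopherol or a gamma-enriched tocopherol mixture. All groups except Control therefore carried the NMBA exposure; the labels used here state no age, dose, route or time.

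Matrix metalloproteinases are zinc-dependent enzymes that are secreted or held at the cell surface as inactive precursors and, once cleaved, cut collagens, elastin, laminins, growth factors and other precursors. Tissue inhibitors of metalloproteinases bind the active site and block it, so the balance between both families sets how much matrix is degraded. Stromelysins and collagenases are often made by keratinocytes at wound edges and in squamous tumours, Mmp12 mainly by macrophages, and Mmp2, Mmp14 and the inhibitors largely by fibroblasts.

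One array per rat gave fluorescence on a single dye, and each value below is a log2 signal relative to the 75th percentile of its own array, so that 0 is a bright probe and values near −8 are dim. Between 70.6% and 79.8% of spots per array were well above background. Groups were spread unequally over 4 slides. All 5 alpha and 3 delta rats (1 to 3) shared slide 1. Slide 2 had all 5 gamma-enriched rats, the remaining delta rats (4 and 5) and Control rat 1. The other 4 Control rats and NMBA rats 1 to 4 shared slide 3, which left NMBA rat 5 alone on slide 4. All 9 squamous epithelial markers tested were well above background on 25 of 25 arrays. So were all 8 fibroblast, 6 smooth muscle and 5 skeletal muscle markers tested, so the samples also held RNA typical of other layers. In such bulk RNA, fewer cells of a type and less RNA per cell cannot be told apart.

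Of the 10 members, 9 passed the filter, which asked for a probe well above background on at least 5 arrays. Mmp2, Mmp14, Timp1, Timp2 and Timp3 were well above background on 25 of 25 arrays, Mmp12 and Mmp13 on 24, Mmp10 on 18 and Mmp3 on 12. Mmp9, the gelatinase typical of neutrophils and macrophages, was well above background on 0 of 25 arrays and was not tested. Levels of different probes are not compared, since probes differ in brightness.

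**Figure D1:**
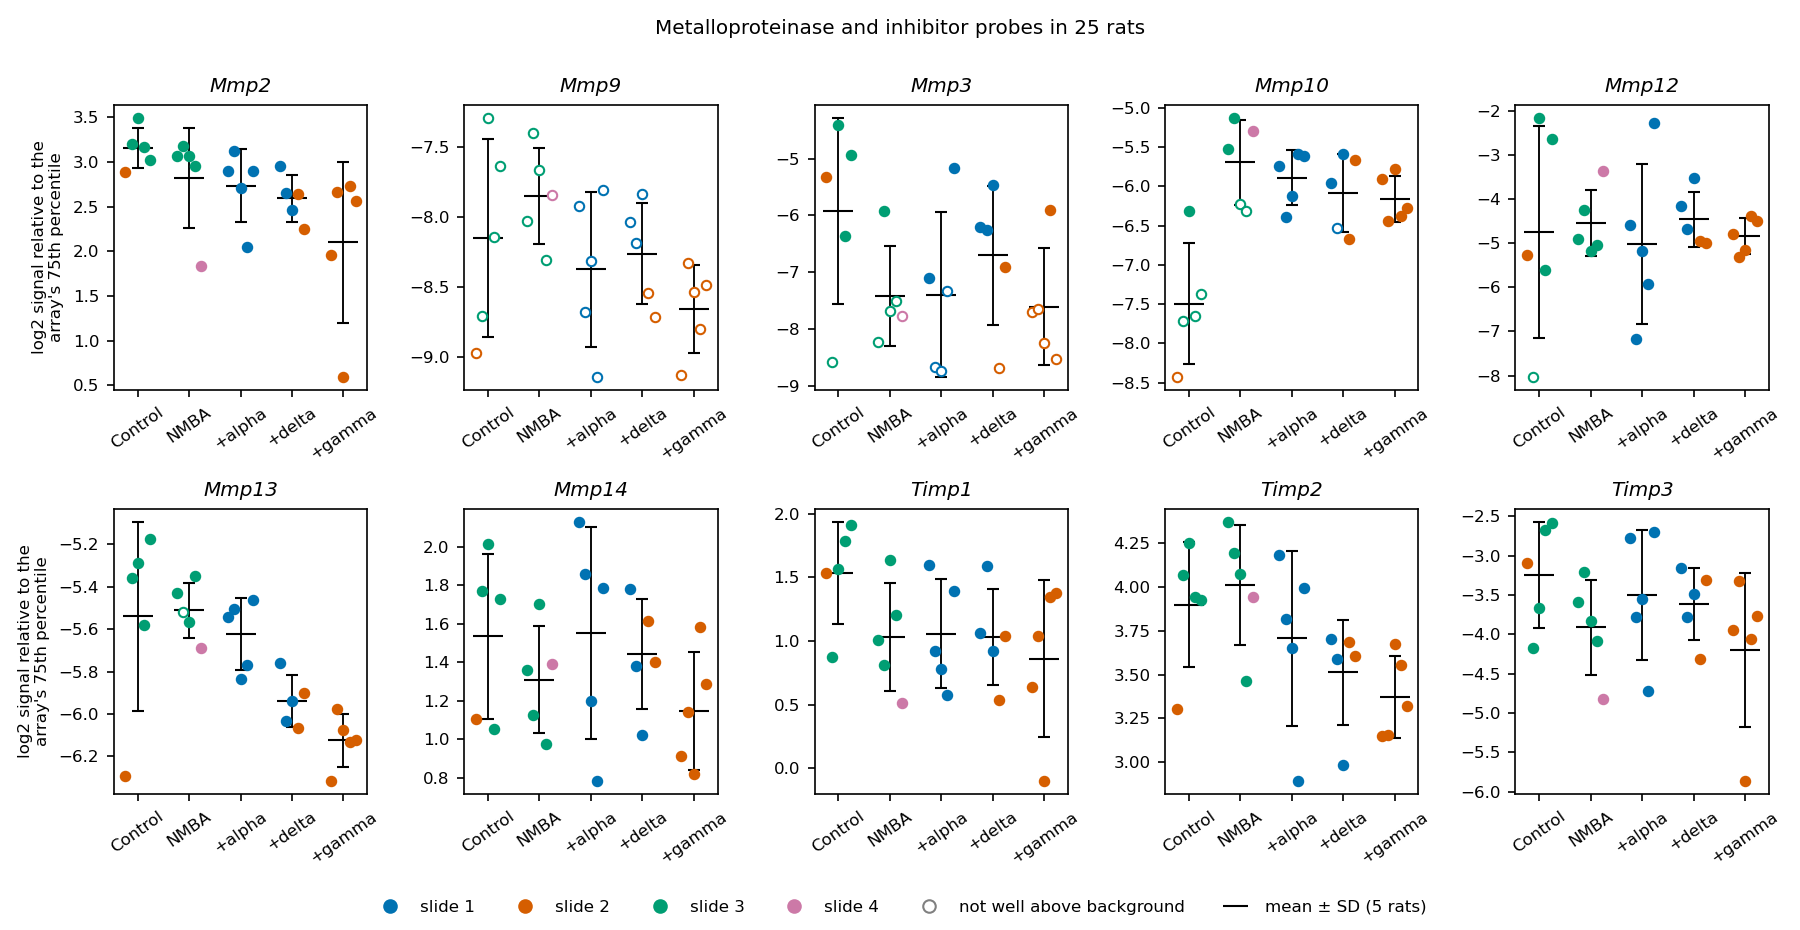
Log2 signal relative to the array's 75th percentile (vertical axis, a separate scale for each gene) in every rat of the 5 groups (horizontal axis), with 1 point per rat coloured by slide, open points not well above background, and bars for the mean ± SD of 5 rats. Control rats 1, 2, 4 and 5 lie lowest for Mmp10, and the gamma-enriched rats and Control rat 1, all on slide 2, lie low for Mmp13.

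Mmp10 was the only member that differed between NMBA and Control rats past the threshold, a Benjamini-Hochberg adjusted p under 0.05 over all 12343 genes tested with limma. Mmp10, stromelysin-2, degrades proteoglycans, laminin and fibronectin and activates other metalloproteinase precursors. It read −8.43, −7.71, −6.31, −7.65 and −7.37 in Control rats 1 to 5, and −5.52, −5.12, −6.22, −6.31 and −5.30 in NMBA rats 1 to 5. Control rat 3 and NMBA rat 4 met at −6.31 after rounding, and unrounded the groups narrowly did not overlap. The other Control rats lay below every NMBA rat.

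The Mmp10 difference was 1.80 ± 0.31 (log2, SE; 95% interval 1.16 to 2.45; adjusted p = 0.0029, limma), a 3.49-fold higher signal. Of all genes tested, 1.55% were called in this comparison, 1.3% were called higher, 0.243% were called lower, and 4% had groups that did not overlap. The signal was well above background on 1 of 5 Control and 3 of 5 NMBA arrays. With each value raised to its own array's background limit, an alternative chosen after the data were seen, the difference fell to 0.99 (adjusted p = 0.035), and with another background correction to 0.58 (adjusted p = 0.0349). The background limit itself lay between −6.595 and −5.579 on NMBA arrays and between −7.123 and −6.462 on Control arrays. The value of 0.99 therefore includes part of this difference in limits. Adjusted p-values ran from 0.00126 to 0.161 over the alternatives, and from 0.000267 to 0.014 when 1 rat was left out in turn.

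The difference was in the same direction within slides. On slide 3 alone, with 4 rats a side, it was 1.47 ± 0.37 and did not pass (adjusted p = 0.161). With slide as a block among all 25 arrays it was 1.47 ± 0.33 and passed (adjusted p = 0.0465). On slide 2, Control rat 1 at −8.43 lay below the delta and gamma-enriched rats of the same slide, which ranged from −6.67 to −5.67. Fitted on the NMBA and Control arrays alone, the call was lost (adjusted p = 0.0531) at the same difference.

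Mmp10 was also above most Control values in the rats that received NMBA with a tocopherol. The alpha rats read −5.74, −6.39, −6.12, −5.59 and −5.61, the delta rats −5.96, −6.53, −5.59, −6.67 and −5.67, and the gamma-enriched rats −5.90, −6.44, −5.78, −6.37 and −6.28. Of the 20 NMBA-exposed rats, 14 lay above the highest Control rat at 4 decimals, where NMBA rat 4 equalled it. Unrounded, NMBA rat 4 lay just above it too. The lowest exposed rat at −6.67 lay above 4 of the 5 Control rats.

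Against Control, Mmp10 was 1.61 ± 0.31 higher in alpha rats (adjusted p = 0.0166, limma; 0.818% of genes called), and 1.34 ± 0.31 higher in gamma-enriched rats (adjusted p = 0.0473; 0.632% called). Because 4 of 5 Control arrays were not well above background, the size is uncertain: with values raised to the background limit the differences were 0.72 and 0.46, and neither passed (adjusted p = 0.158 and 0.321). In delta rats the difference was 1.41 ± 0.31 and did not pass (adjusted p = 0.0605; 0.194% called). The alpha rats shared no slide with a Control rat. The alpha call was lost with slide as a block (2.40, adjusted p = 0.306), with the other background correction (0.50, adjusted p = 0.0639), with only the groups compared (adjusted p = 0.119) and without Control rat 4 (adjusted p = 0.0589). The first 3 of these settings ended the gamma-enriched call too (adjusted p = 0.381, 0.118 and 0.15). The gamma-enriched call was held only when Control rat 1 or 3, alpha rat 4, delta rat 3 or 4 or NMBA rat 4 was the rat left out, that is in 6 of 25 cases. Pooling all 20 exposed rats against Control gave 1.54 ± 0.25 (adjusted p = 0.00152), where 0.843% of genes were called.

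No difference in Mmp10 between a tocopherol group and NMBA passed. The differences were −0.19 in alpha rats (95% interval −0.84 to 0.45), −0.39 in delta rats (−1.04 to 0.26) and −0.46 in gamma-enriched rats (−1.11 to 0.19), with adjusted p-values of 0.805, 0.527 and 0.358 (limma). All 3 intervals end above −1.80, the difference of the Control mean from the NMBA mean. The size of that difference is uncertain, since only 1 of 5 Control arrays was well above background. With the other background correction NMBA and Control differed by only 0.58, and all 3 intervals include a fall of that size.

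T cell markers were also higher in NMBA than in Control rats. Their score, the mean deviation of 6 genes, ranged from −0.77 to 0.21 in Control and from 0.27 to 1.36 in NMBA rats. Of the 6 genes, 4 were called higher, against 1.3% of all genes. In the tocopherol groups the score ranged from −1.28 to 0.37, mostly with the Control rats. Within groups, Mmp10 and the T cell score had r = 0.21 over 25 rats (rho = 0.30, permutation p = 0.325 and 0.187); the part of these cells in the Mmp10 difference was not tested. The squamous epithelial score ranged from −0.24 to 0.18 in Control and from 0.02 to 0.32 in NMBA rats, with 8 of 9 genes positive, 3 at an unadjusted p under 0.05 and 0 called by limma. Its r with Mmp10 within groups was 0.42 (rho = 0.34, permutation p = 0.0435 and 0.1, adjusted over 36 relations 0.0979 and 0.2), and 0.27 without the 2 farthest rats; its part was not tested either.

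Mmp3, stromelysin-1, a broad protease that also activates collagenase precursors, was read near its detection limit and varied widely. It read −5.32, −8.58, −4.42, −6.36 and −4.95 in Control and −8.23, −5.92, −7.68, −7.51 and −7.77 in NMBA rats. It was well above background on 4 of 5 Control arrays but on 1 of 5 NMBA, 2 of 5 alpha, 4 of 5 delta and 1 of 5 gamma-enriched arrays. The groups overlapped: Control rat 2 lay below every NMBA rat, and NMBA rat 2 lay above Control rats 2 and 4.

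The Mmp3 difference between NMBA and Control was −1.50 ± 0.75 (95% interval −3.06 to 0.06; adjusted p = 0.412, limma), opposite in sign to that of Mmp10. Against NMBA it was 0.02 in alpha, 0.72 in delta and −0.18 in gamma-enriched rats, each with an SE of 0.75. In gamma-enriched rats against Control it was −1.69 (adjusted p = 0.237).

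Mmp12, the macrophage elastase, had the widest spread of all members in Control rats, which read −5.26, −8.04, −2.15, −5.61 and −2.63. The NMBA rats lay between −5.16 and −3.36, the alpha rats between −7.16 and −2.26, the delta rats between −4.99 and −3.51 and the gamma-enriched rats between −5.32 and −4.39. Every group overlapped every other. The differences were 0.20 ± 0.84 for NMBA against Control, then −0.48, 0.08 and −0.29 for alpha, delta and gamma-enriched against NMBA (adjusted p from 0.819 to 0.969, limma, for all 4 comparisons).

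The genes Mmp10, Mmp3, Mmp12 and Mmp13 lie together in one cluster on rat chromosome 8. In the RefSeq table of assembly GRCr8 the order was Mmp13, Mmp12, Mmp1b, Mmp3, Mmp1, Mmp10, Mmp8, Mmp27, Mmp20 and Mmp7, with 0 other coding genes between them. In NMBA against Control, Mmp10 was called and Mmp3, Mmp12 and Mmp13 were not; differences between these genes were not tested, and the interval of Mmp12 (−1.55 to 1.94) includes the Mmp10 value. Their promoters are shown because all 4 hold the AP-1 letters TGAGTCA and a TATAAA box, both in capitals, in the 120 bases before the RefSeq start, 5′ to 3′ on the plus strand of GRCr8. In Mmp13 the AP-1 letters lie on the other strand and read TGACTCA here.
Mmp10, chr8:12974587-12974706: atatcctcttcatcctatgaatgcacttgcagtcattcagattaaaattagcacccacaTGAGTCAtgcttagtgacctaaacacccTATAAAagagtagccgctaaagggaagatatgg
Mmp3, chr8:12925161-12925280: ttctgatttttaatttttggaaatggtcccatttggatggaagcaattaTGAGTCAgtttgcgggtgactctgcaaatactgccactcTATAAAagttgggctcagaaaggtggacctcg
Mmp12, chr8:12866532-12866651: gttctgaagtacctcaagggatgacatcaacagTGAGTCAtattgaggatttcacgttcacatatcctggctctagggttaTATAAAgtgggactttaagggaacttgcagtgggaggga
Mmp13, chr8:12782709-12782828: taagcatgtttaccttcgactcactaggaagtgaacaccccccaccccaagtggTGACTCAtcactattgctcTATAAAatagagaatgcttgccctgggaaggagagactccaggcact

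The AP-1 letters began 61 bases before the start in Mmp10, 71 in Mmp3, 87 in Mmp12 and 66 in Mmp13. Searched on both strands, 4.05% of 33469 rat promoters held TGAGTCA within 250 bases and 12.9% held TATAAA. Promoters were found for 7 of the 10 members, and those of Timp1, Timp2 and Timp3 held neither motif. A match describes letters and shows no binding.

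AP-1 factors are known to bind the letters TGAGTCA. The letters CAGGAAG, a core bound by Ets factors, were searched in the same 250 bases. Among the members they were found only in the promoters of Mmp3 and Timp1. Of the AP-1 and Ets factors, 1 of 10 genes tested passed in NMBA against Control, where 1.55% of all genes were called. This was Fosl1, a Fos-family partner in AP-1. It read between −5.69 and −3.90 in Control and between −2.86 and −2.42 in NMBA rats, without overlap, as for 4% of genes. It rose by 1.93 ± 0.37 (adjusted p = 0.00664, limma), and the list's median was 0.23 against 0.05 over all genes. Fosl1 was also higher than Control in alpha rats (1.56, adjusted p = 0.0494, limma) and gamma-enriched rats (1.62, adjusted p = 0.045). All genes called in these comparisons made up 0.818% and 0.632%. Both calls were lost with slide as a block (adjusted p = 0.487 and 0.984) and with only the groups compared, and leaving out 1 rat in turn kept them in 6 and 10 of 25 cases. Within groups, Mmp10 and Fosl1 had r = 0.36 and rho = 0.42 over 25 rats (permutation p = 0.0891 and 0.0278; adjusted over 9 members 0.324 and 0.25), and r = 0.37 without the 2 farthest rats. Fosl1 had a higher r with Mmp12 (0.56, rho = 0.37, adjusted permutation p = 0.161 and 0.499). With Mmp3 it had r = 0.38 (rho = 0.28, adjusted permutation p = 0.324 and 0.592). No member passed, and the part of Fosl1 in the Mmp10 difference was not tested. The correlations of Fosl1 were chosen after values had been seen.

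**Figure D2:**
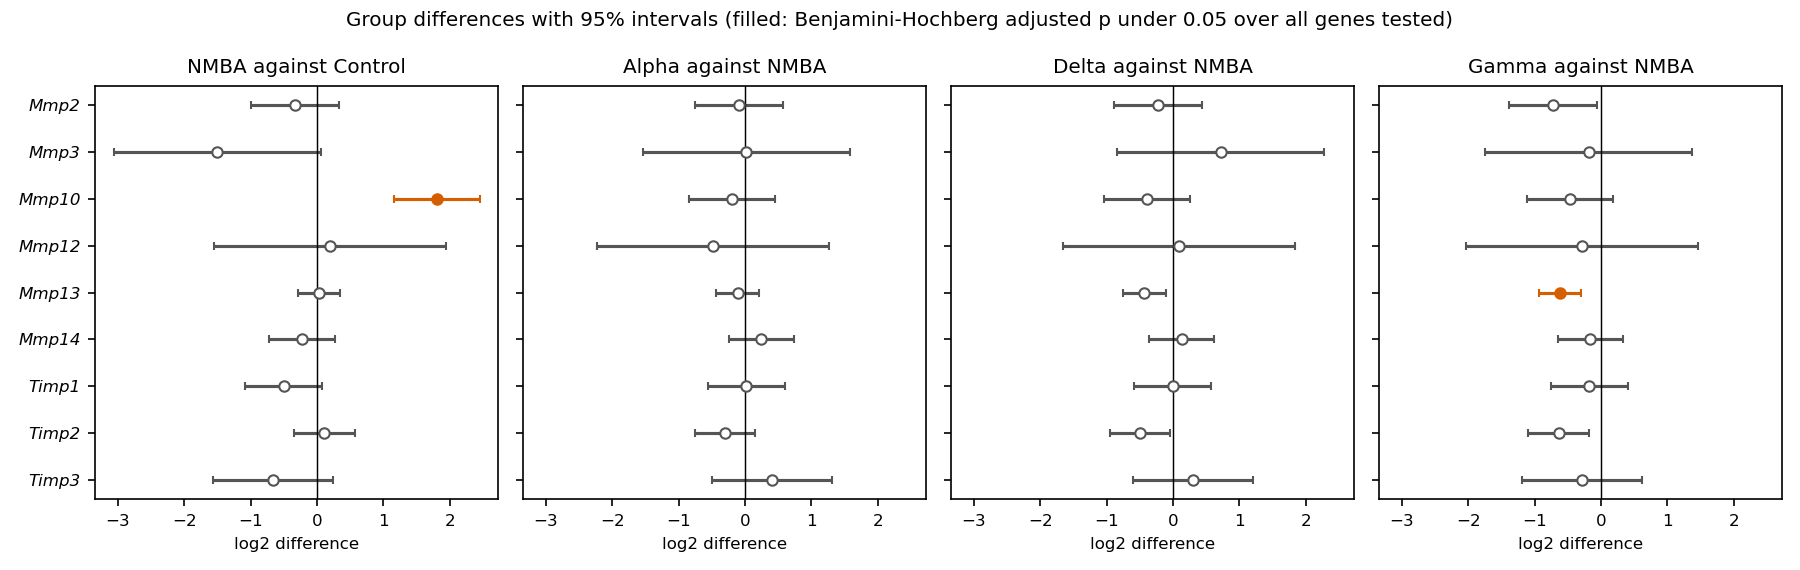
Log2 difference with its 95% interval (horizontal axis) for each of the 9 tested members (vertical axis) in 4 comparisons, from limma on 25 arrays. Filled points passed an adjusted p of 0.05 over all genes, namely Mmp10 for NMBA against Control at 1.80 and Mmp13 for gamma-enriched tocopherol against NMBA at −0.61.

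Mmp13, collagenase-3, which cleaves fibrillar collagen, was the only member called between a tocopherol group and NMBA. The NMBA rats read −5.43, −5.52, −5.57, −5.35 and −5.69, and the gamma-enriched rats −6.32, −5.97, −6.07, −6.13 and −6.12. All gamma-enriched rats lay below all NMBA rats.

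The Mmp13 difference was −0.61 ± 0.15 (95% interval −0.93 to −0.29; adjusted p = 0.0156, limma), a 1.53-fold lower signal. In this comparison 8.95% of all genes were called, 7.36% as lower, and 7.05% had groups that did not overlap. Mmp13 was well above background on 4 of 5 NMBA and 5 of 5 gamma-enriched arrays. The limit of detection lay between −6.595 and −5.579 on NMBA arrays and between −7.517 and −6.475 on gamma-enriched arrays. Its part in the Mmp13 difference was not tested. Adjusted p-values ran from 0.00449 to 0.998 over the alternatives; the call was held whichever rat was left out (25 of 25 cases). It was lost under quantile normalization (−0.33, adjusted p = 0.0992) and under the other background correction (−0.21, adjusted p = 0.127).

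The slide moved with this result. All gamma-enriched rats were on slide 2, and Control rat 1, on the same slide, read −6.30, whereas Control rats 2 to 5 on slide 3 read −5.36, −5.29, −5.58 and −5.18. With slide as a block the Mmp13 difference turned to 0.29 ± 0.23 (adjusted p = 0.998). Only Control rat 1 ties slide 2 to slide 3, so that value rests on 1 animal. Slide 2 arrays as a whole ranged from −6.32 to −5.90 and slide 3 arrays from −5.58 to −5.18, without overlap, and gamma-enriched tocopherol and slide 2 cannot be told apart for this gene.

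Delta rats read −5.76, −6.03 and −5.94 on slide 1 and −6.07 and −5.90 on slide 2. All 5 lay below all 5 NMBA rats, as happened for 5.7% of genes, but the difference of −0.43 ± 0.15 did not pass (adjusted p = 0.115, limma; 2.49% of genes called). It passed without Control rat 1 (adjusted p = 0.0282) and turned to 0.43 with slide as a block. On slide 1, the alpha rats ranged from −5.84 to −5.46 and the delta rats from −6.03 to −5.76, a difference of −0.29 ± 0.17 between groups that shared a slide (adjusted p = 0.999). Alpha rats differed from NMBA by −0.11 ± 0.15. NMBA and Control differed by 0.03 ± 0.15 (95% interval −0.29 to 0.35).

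**Figure D3:**
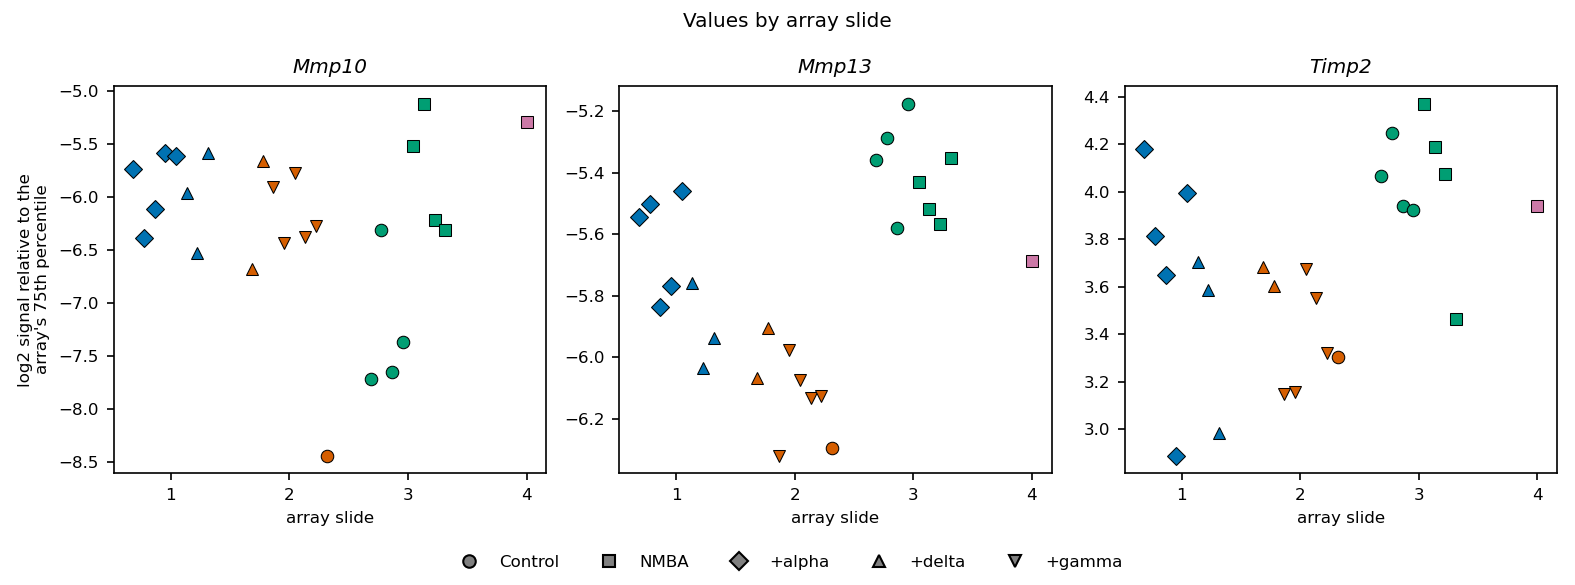
Log2 signal relative to the array's 75th percentile (vertical axis) of Mmp10, Mmp13 and Timp2 against array slide (horizontal axis), with 1 point per rat and the symbol for its group. Control rat 1, the circle on slide 2, lies at −8.43 for Mmp10, −6.30 for Mmp13 and 3.30 for Timp2, and for the last pair of genes it sits among the gamma-enriched rats.

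Mmp2, gelatinase A, which cuts denatured collagen and basement membrane collagen, passed in 0 of 12 comparisons (limma), with an unadjusted p under 0.05 in 3. Control rats read 2.89, 3.20, 3.50, 3.17 and 3.03, and NMBA rats 3.07, 3.17, 3.07, 2.95 and 1.84. The gamma-enriched rats read 1.96, 2.67, 0.59, 2.73 and 2.57, all below every Control rat on this brighter of its probes. NMBA rat 5, on a slide without other arrays of the series, and gamma-enriched rats 3 and 1 were the lowest of the 25.

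The Mmp2 difference was −0.34 ± 0.32 for NMBA against Control (adjusted p = 0.695, limma). It was −1.05 ± 0.32 for gamma-enriched rats against Control (95% interval −1.72 to −0.39; adjusted p = 0.111), in a comparison where 3.36% of genes had groups without overlap. Without gamma-enriched rat 3 the value was −0.68 (adjusted p = 0.181). Against NMBA the differences were −0.09 in alpha, −0.23 in delta and −0.72 in gamma-enriched rats, the last of which was −0.34 without gamma-enriched rat 3. A second Mmp2 probe gave group means of 1.45 ± 0.25 (SD) in Control, 0.71 ± 0.75 in NMBA and 0.54 ± 1.1 in gamma-enriched rats. The alpha and delta means were 0.98 ± 0.63 and 0.96 ± 0.29, both above the NMBA mean. On that probe the groups overlapped: gamma-enriched rats ranged from −1.19 to 1.47 and Control rats from 1.12 to 1.72.

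Fibroblast markers moved with Mmp2. Their score over 8 genes, all at a level well above background in every rat, ranged from 0.28 to 0.66 in Control, −1.29 to 0.30 in NMBA and −1.94 to 0.46 in gamma-enriched rats. The 4 rats with the lowest Mmp2 were also the 4 with the lowest score, namely gamma-enriched rat 3 (−1.94), NMBA rat 5 (−1.29), gamma-enriched rat 1 (−0.65) and alpha rat 4 (−0.63). Against Control, all 8 markers were negative in NMBA rats (median −0.57) and in gamma-enriched rats (median −0.82), with 0 of 8 called by limma and 2 and 5 of 8 at an unadjusted p under 0.05. Low scores were not particular to fibroblast markers. The macrophage, endothelial, smooth muscle and mast cell scores also had their lowest single values in the gamma-enriched group (−1.56, −1.54, −1.08 and −2.47). Each is the value of 1 rat. The group's medians were 0.28, 0.18, −0.34 and 0.02, against 0.29, 0.29, 0.325 and 0.47 in Control. The part of any of these markers in the Mmp2 values was not tested.

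Mmp14, a membrane-bound metalloproteinase that activates the Mmp2 precursor with the help of Timp2, ranged from 1.06 to 2.02 in Control, 0.98 to 1.70 in NMBA, 0.78 to 2.13 in alpha, 1.02 to 1.78 in delta and 0.82 to 1.58 in gamma-enriched rats. The groups overlapped throughout. It differed by −0.22 ± 0.24 between NMBA and Control, and by 0.24, 0.13 and −0.16 between NMBA and the alpha, delta and gamma-enriched rats. All adjusted p-values for these 4 comparisons lay between 0.646 and 0.808 (limma).

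Mmp9 lay between −8.97 and −7.29 in Control and between −8.30 and −7.41 in NMBA rats, all not well above background, which bounds its signal from above and gives no level. With dim probes kept in the fit, Mmp9 was among 3 members called lower in gamma-enriched than in NMBA rats, although no array measured it above background. The limit of detection itself differed: the dimmest probe well above background lay between −6.59 and −5.58 on NMBA arrays and between −7.52 and −6.47 on gamma-enriched arrays.

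Of the 36 tests of Timp1, Timp2 and Timp3 over 12 comparisons, 0 passed (limma) and 7 had an unadjusted p under 0.05. Timp2, which blocks several metalloproteinases and helps Mmp14 to activate Mmp2, read 4.37, 4.19, 4.07, 3.46 and 3.94 in NMBA and 3.15, 3.16, 3.67, 3.55 and 3.32 in gamma-enriched rats. NMBA rat 4 overlapped the gamma-enriched rats, and the other NMBA rats lay above them.

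The Timp2 difference between those groups was −0.64 ± 0.22 (95% interval −1.09 to −0.18; adjusted p = 0.0706, limma). It passed without alpha rat 4, gamma-enriched rat 3 or NMBA rat 4, where it lay between −0.77 and −0.64, and turned to 0.09 ± 0.44 with slide as a block. As with Mmp13, Control rat 1 on slide 2 read low at 3.30 against 4.07, 4.25, 3.94 and 3.92 in the other Control rats. Against NMBA, Timp2 differed by −0.30 in alpha and −0.50 in delta rats, and NMBA differed from Control by 0.11 ± 0.22.

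Timp1, the inhibitor most often induced in inflamed tissue, read 1.53, 0.87, 1.57, 1.79 and 1.92 in Control and 1.01, 0.81, 1.64, 1.20 and 0.51 in NMBA rats, with overlap. The difference was −0.50 ± 0.28 (adjusted p = 0.467, limma). The values were 0.02, −0.0043 and −0.17 for alpha, delta and gamma-enriched against NMBA. Pooled, the exposed rats lay −0.54 ± 0.22 from Control (adjusted p = 0.31).

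Timp3, an inhibitor that binds to the matrix and also blocks ADAM proteases, ranged from −4.18 to −2.59 in Control, −4.82 to −3.21 in NMBA, −4.72 to −2.69 in alpha, −4.32 to −3.15 in delta and −5.87 to −3.32 in gamma-enriched rats. NMBA differed from Control by −0.67 ± 0.44 (adjusted p = 0.549, limma). Alpha, delta and gamma-enriched rats differed from NMBA by 0.41, 0.30 and −0.29.

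Counted together, 1 of 9 members was called higher and 0 lower in NMBA against Control, with a median of −0.22 against 0.05 over all genes. The counts against NMBA were 0 of 9 for alpha (3.82% of genes called; 0 members with an unadjusted p under 0.05), 0 of 9 for delta (2.49% of genes called; 2 unadjusted) and 1 of 9, lower, for gamma-enriched rats (7.36% of genes called lower; 3 unadjusted), which is near the share of all genes. All 9 members were negative in the last comparison, with a median of −0.29 against −0.10 over all genes. Against Control, 8 of 9 were negative in gamma-enriched rats, Mmp10 being the exception, and 6 of the 8 had an unadjusted p under 0.05, as did 2272 of 12343 genes in either direction. These comparisons share their NMBA or Control rats. With all 3 tocopherol groups pooled against NMBA, 0 of 9 passed while 11.2% of genes did, and Mmp13 came closest (−0.38 ± 0.13, adjusted p = 0.0507). In the test of any difference among the 5 groups, which called 7% of genes, Mmp10 (adjusted p = 0.00832) and Mmp13 (adjusted p = 0.0332) passed.

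The tocopherols differ in the methyl groups on their chromanol ring. Over 3 pairs of tocopherol groups and 9 members, 27 comparisons in all, 0 passed after adjustment over all genes (limma) and 1 had an unadjusted p under 0.05. That was Mmp13, at −0.50 ± 0.15 in gamma-enriched against alpha rats (95% interval −0.82 to −0.18; adjusted p = 0.113; 1.62% of genes called), whose groups did not overlap, as for 3.19% of genes. For delta against alpha and for gamma-enriched against delta 0% of genes were called. The 95% intervals of other members were wide. For Mmp10 they ran from −0.84 to 0.45 for delta against alpha, −0.91 to 0.38 for gamma-enriched against alpha and −0.72 to 0.57 for gamma-enriched against delta. For Mmp12 the first of these ran from −1.18 to 2.31.

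Of the rest of the metalloproteinase family and Timp4, 11 of 17 listed genes were tested and 0 passed in NMBA against Control (limma; 2 with an unadjusted p under 0.05). Against NMBA, 0 passed in alpha, delta or gamma-enriched rats (1, 1 and 2 unadjusted). Timp4, an inhibitor typical of heart and vessels, ranged from −2.27 to −1.51 in Control and from −4.29 to −2.46 in NMBA rats. The difference was −1.52 ± 0.44 (adjusted p = 0.0909, limma) without overlap, as for 4% of genes. With the tocopherol groups pooled, Timp4 was 1.17 ± 0.36 higher than in NMBA rats (adjusted p = 0.0383, limma). It was the only 1 of the 11 tested genes called there, while 11.2% of all genes were called. With slide as a block the difference was 0.45 (adjusted p = 0.888, and 0.0205 to 0.888 over the alternatives). Of 14 matrix substrates tested, such as collagens and fibronectin, 0 passed in those comparisons, although 6 had an unadjusted p under 0.05 in NMBA against Control, where 11 of 14 were negative (median −0.69).

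Among 8 inducers of metalloproteinase genes, Il1b, the cytokine interleukin-1 beta, ranged from −2.98 to −1.05 in NMBA, −4.26 to −2.47 in alpha and −4.57 to −2.85 in gamma-enriched rats. Control rats ranged from −3.89 to −1.77 and overlapped the NMBA rats, and 0 of 8 inducers passed in NMBA against Control. Against NMBA, Il1b fell by 1.59 in alpha rats (adjusted p = 0.0396, limma) and by 1.97 in gamma-enriched rats (adjusted p = 0.00738). It was 1 of 8 inducers called in each, where 3.82% and 8.95% of all genes were called. The delta value of −1.57 lay just short (adjusted p = 0.0509). Tnf, another inflammatory cytokine, differed by −1.15 ± 0.33 with the tocopherol groups pooled (adjusted p = 0.0275, limma). There 2 of 8 inducers passed, Il1b and Tnf, while 11.2% of all genes did. A further 3 listed genes passed as lower in gamma-enriched rats against NMBA, 1 each of 10 ADAM proteases, 8 plasminogen genes and 10 AP-1 and Ets factors, shares close to the 7.36% of all genes called lower there. They were Adam19, a membrane protease (−0.89), Serpinf2, the plasmin inhibitor antiplasmin (−0.96), and Jund, an AP-1 subunit (−0.70). With slide as a block, the calls of Il1b, Tnf, Adam19, Serpinf2 and Jund were lost, and Serpinf2 turned to 0.14.

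Members were also compared with each other after each group's mean was removed, over 25 rats that share arrays and slides. Of 36 pairs, 6 had an adjusted permutation p under 0.05 by Pearson's r and 2 of them by Spearman's rho. Mmp3 and Mmp12 had r = 0.75 (rho = 0.60, permutation p = 0.00031 and 0.00728, adjusted 0.00666 and 0.0755), and r = 0.58 without the 2 farthest rats. Both read low in Control rat 2 (−8.58 and −8.04) and high in Control rats 3 and 5 and alpha rat 5. Mmp10, their neighbour, had r = 0.41 with Mmp3 and 0.55 with Mmp12, which did not pass (adjusted permutation p = 0.228 and 0.125).

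Mmp14 and Timp2, which act together on the Mmp2 precursor, had r = 0.73 (rho = 0.65, permutation p = 0.00037 and 0.00231, adjusted 0.00666 and 0.0416), and r = 0.59 without the 2 farthest rats. Timp1 and Timp3 had r = 0.73 (rho = 0.57, adjusted permutation p = 0.0078 and 0.0755), and r = 0.58 without them. Mmp2 had r = 0.67 with Timp3, 0.65 with Timp1 and 0.50 with Mmp14. Without gamma-enriched rat 3 and NMBA rat 5 these became 0.39, 0.41 and 0.65, so the first pair rests largely on those rats.

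Mmp2 and the fibroblast score had r = 0.94 and rho = 0.86 over 25 rats (permutation p = 0.00012 and 0.00027, adjusted over 36 relations 0.00351 and 0.00486), and r = 0.86 without the 2 farthest rats. Timp3 had r = 0.75 and Timp1 r = 0.65 with the same score. With the macrophage score, Mmp2 had r = 0.90, Timp3 r = 0.78 and Timp1 r = 0.74, so both inhibitors followed it at least as closely. Only fibroblast, macrophage, T cell and squamous epithelial scores were compared with members. Among these, Mmp12 had its highest r with the T cell score (0.57, rho = 0.73, adjusted permutation p = 0.0119 and 0.00486). With the macrophage score Mmp12 had r = 0.15 (rho = 0.29, adjusted permutation p = 0.44 and 0.226). Mmp10 had none that passed. With slide centred out as well, Mmp2 and the fibroblast score had r = 0.94. Relations to marker scores were chosen after values had been seen.

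**Figure D4:**
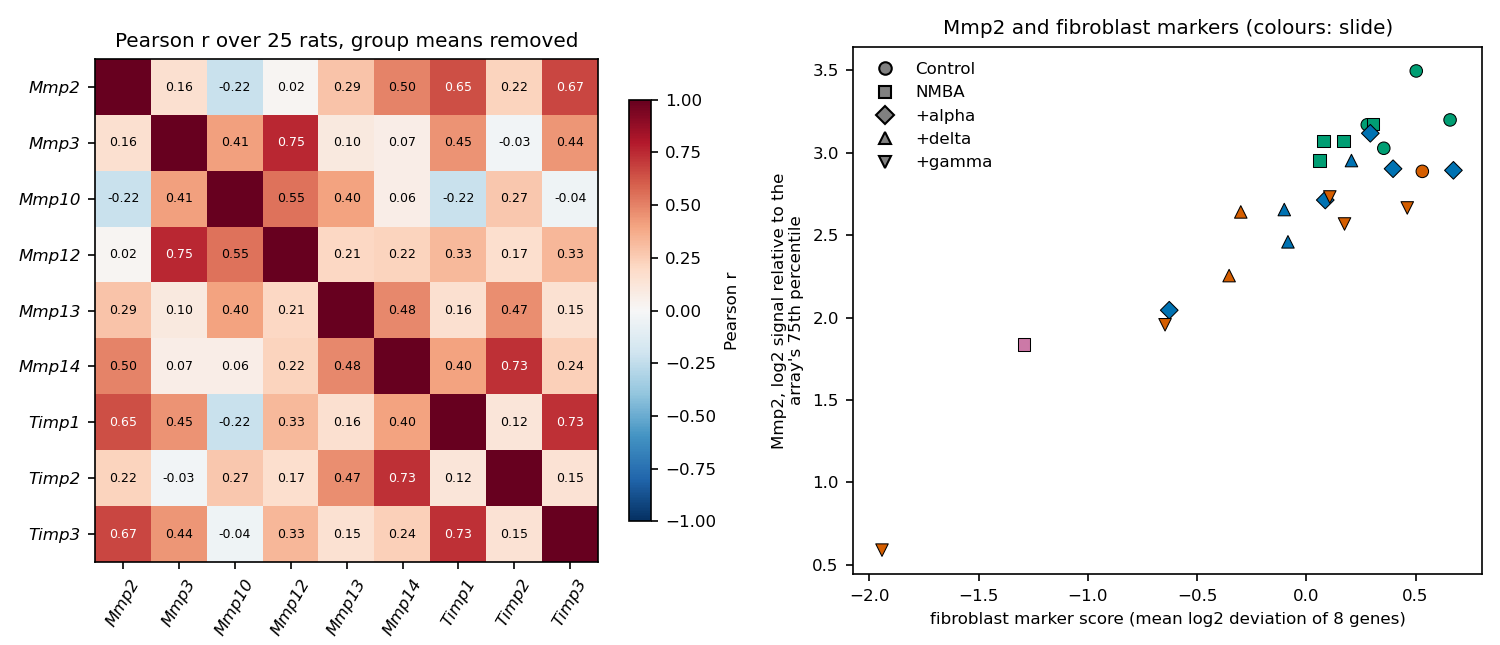
Left, Pearson r between members over 25 rats after removal of group means, from 0.75 for Mmp3 with Mmp12 down to −0.22 for Mmp2 with Mmp10. Right, Mmp2 log2 signal (vertical axis) against the fibroblast marker score (horizontal axis) in each rat, with symbols for groups and colours for slides; gamma-enriched rat 3 lies lowest on both axes, at 0.59 and −1.94.

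The genes most like each member, by Pearson r over the same 25 rats, are given as description. For Mmp2 they were Pdgfrb (0.96), a growth factor receptor of fibroblasts and pericytes, Chrd and Scube1 (0.96 each). Timp1 was nearest to Fxyd5 (0.92), Npr2 and Loxl1, and Timp3 to Nherf2 (0.89), Fstl1 and Tcf7l1. Mmp14 was nearest to Syne3 (0.89), Elmo2 and Tmem140, and Timp2 to Exo1 (0.96), Rplp0 and Kbtbd11.

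For the cluster genes the nearest were Qrfpr (0.85), Bhlha15 and Foxa2 for Mmp10, and Cytl1 (0.90), Apod and Gdf10 for Mmp3. Mmp12 was nearest to Comp (0.90), a cartilage matrix protein, Scgb1a1 and the chemokine gene Ccl9. Mmp13 was nearest to Ccnjl (0.86), Or4k49 and Plpp1.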

How the data were processed

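Total RNA from the esophageal epithelium of 25 rats, 5 in each of 5 groups, was hybridised to 1-colour Agilent arrays, 1 array per rat. The authors' scanner files hold fluorescence intensity per spot, background-subtracted by Agilent Feature Extraction (11.5.1.1 per the file headers, 10.7 per the submitters' processing notes) and not normalized between arrays. The deposited value table holds log2 signals whose 75th percentile per array lies between 0.00 and 0.0007 and whose medians lie between −3.35 and −3.00; it served as an alternative.

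After removal of spots marked as outliers by the scanner software, each probe's value was the mean log2 processed signal of its spots, less the array's 75th percentile over 58717 non-control spots. Probes well above background on at least 5 arrays were kept, and the brightest kept probe on average stood for its gene. Of 30367 probes, 18355 matched 1 gene symbol by RefSeq accession, 12012 none and 0 several. Names and promoters come from RefSeq (GRCr8), whereas the array was designed on rn4.

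A model of 5 group means on 25 arrays was tested with limma 3.58.1 (residual degrees of freedom 20, two-sided, Benjamini-Hochberg within each of 12 contrasts at 0.05). Values given as difference ± SE are limma's, with 5 rats a group; nothing says whether rats were housed or treated separately. Correlations used 100000 permutations (SciPy 1.17.1). The number of arrays limits the precision. A list score is the mean over its genes of the log2 value minus the gene's mean over all rats. The fits were tested on simulated data.

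The members, lists, markers and rules were chosen with earlier results of these data known. Named besides the members were up to 4 called genes of each list by smallest p, or up to 2 by size where none was called, and the 3 genes with the highest r to each member. Replicate numbers did not pair the rats: rats of the same number in different groups had a median r of −0.05 between their deviations from the group means (range −0.58 to 0.53).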

Additional observations from a re-analysis of the deposited data

Results flagged for a closer look

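Each member probe was checked in each group of 5 rats for a value whose gap to its nearest neighbour exceeded 0.71 of the group's range. Of 55 such groups 2 had one, and chance gives about 1 in 20. Mmp2 read 1.84 in NMBA rat 5 against 2.95 to 3.17 in the other NMBA rats; this rat's array was the only one on slide 4, and its fibroblast score of −1.29 was the lowest among NMBA rats. Timp2 read 2.99 in delta rat 3 against 3.59 to 3.70 in the other delta rats.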

How the results depend on the processing

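Mmp10 in NMBA against Control kept its sign in the 14 alternatives that tested it with all rats of both groups or of one slide, and its call in 12. The count of 1 member called there became 0 within one slide, with only the groups compared, and with probes well above background on all 25 arrays, a filter that removed Mmp3, Mmp10, Mmp12 and Mmp13. That filter also gave 0 for alpha and gamma-enriched against Control, gamma-enriched against NMBA, the pooled exposed rats and the test across 5 groups. Normexp background correction, run on median signals because mean signals were not used here, gave 0 for the same list except the pooled rats. Values raised to the background limit gave 0 for alpha, gamma-enriched and pooled exposed rats against Control and 1 across the 5 groups. With only the groups compared, alpha and gamma-enriched against Control gave 0.

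Slide as a fixed block gave 0 for alpha, gamma-enriched and pooled exposed rats against Control, for gamma-enriched against NMBA and across the 5 groups. It turned Mmp13 to 0.43 (delta), 0.29 (gamma-enriched) and 0.48 (tocopherols pooled) against NMBA, and to 0.31, 0.17 and 0.24 in delta, gamma-enriched and pooled exposed rats against Control. Timp2 turned to 0.36, 0.0871 and 0.36 in the first 3 of these and to 0.0663 in gamma-enriched against Control; Serpinf2 turned to 0.14 (gamma-enriched) and 0.33 (pooled) against NMBA. Of 84 further member values, none past an unadjusted p of 0.05, 36 changed sign with it. The cause was not tested. Slide as a random block (correlation −0.03) gave 1 for delta against Control and gamma-enriched against alpha, and 2 for gamma-enriched against Control, gamma-enriched against NMBA and tocopherols pooled against NMBA.

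Quantile normalization gave 1 for delta against Control, 0 for gamma-enriched against NMBA and 1 across the 5 groups. The replicate block and the trended robust prior each gave 0 for gamma-enriched against Control and 1 across the 5 groups; the replicate block changed no other count of members called. The unfiltered fit gave 0 for gamma-enriched against Control and 3 for that group against NMBA. The deposited values and the percentile over probes (chosen after the data were seen) gave 0 for gamma-enriched against Control. Tocopherols pooled against NMBA rose from 0 to 1, Mmp13, in these last 3 settings and with the mean of a gene's probes, retained spots, raised values or only the groups compared.

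Leaving out 1 rat in turn gave 1 for NMBA against Control, 1 to 2 for gamma-enriched against NMBA, pooled exposed rats and the 5 groups, 0 to 2 for gamma-enriched against Control, 0 to 1 for alpha or delta against Control, delta against NMBA, gamma-enriched against alpha and tocopherols pooled against NMBA, and 0 for the other 3 comparisons. Control rat 1 changed the most: without it Mmp13 also passed in delta against Control and NMBA and in gamma-enriched against Control and alpha, in tocopherols pooled against NMBA and in pooled exposed rats against Control. Calls over all genes numbered 191 for NMBA against Control, 62 with slide as a fixed block, 31 within one slide and 95 with only the groups compared. For gamma-enriched against NMBA they numbered 1 with slide as a fixed block, 613 after normexp, 1805 with slide as a random block and 3321 without the filter, against 8.95% of 12343 genes as reported. The count of 6 correlated pairs became 4 with slide centred out and 4 after quantile normalization.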

Other observations

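Squamous epithelial markers, such as keratins, were called lower in 4 of 9 genes in gamma-enriched against NMBA rats (median −0.41), where 7.36% of all genes were called lower, and in 1 of 9 in alpha (3.82% of genes called) and in delta rats (2.49%). None of these lower calls held once slide entered the fit as a block, where each comparison called 1 gene, as higher. All 4 tested mast cell markers were negative in gamma-enriched rats against Control (median −0.90), with 0 called by limma and 2 at an unadjusted p under 0.05. Matrix substrates of the metalloproteinases had a median of −0.73 in gamma-enriched rats against Control, with 12 of 14 negative, 7 at an unadjusted p under 0.05 and 0 called.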
